A study of Homo sapiens with 12 samples.

Results

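Cadherins, claudins, desmosomal cadherins and connexins are the membrane proteins that build the adherens junctions, tight junctions, desmosomes and gap junctions of epithelial cells. Their genes were taken by symbol, as every gene named CDH, CLDN, DSC, DSG, GJA or GJB followed by a digit. This gave 68 of the 23228 genes in the files: 23 cadherins, 23 claudins, 7 desmosomal cadherins and 15 connexins. Of these, 30 had enough counts to be tested (5 cadherins, 13 claudins, 4 desmosomal cadherins and 8 connexins). RNA was sequenced from MDA-MB-468, a human triple-negative breast cancer line, in a derivative in which doxycycline switches on ERβ1, the full-length form of estrogen receptor beta (gene ESR2). Uninduced vehicle cells had no doxycycline and 0.1% DMSO, and uninduced E2 cells had no doxycycline and 10 nM 17β-estradiol (E2). Induced vehicle cells had 50 ng/mL doxycycline and 0.1% DMSO, and induced E2 cells had 50 ng/mL doxycycline and 10 nM E2. Doxycycline was given for 48 hours and DMSO or E2 for the last 4 hours. The medium of all groups lacked phenol red, and its serum was charcoal-stripped (10% for 3 days beforehand, 5% during the experiment). Each of the 4 groups has 3 libraries, numbered 1 to 3. The labels do not say whether the line is a single clone, and no group without the receptor construct received doxycycline, so doxycycline itself and the receptor it induces cannot be told apart.

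Classical cadherins bind like molecules on the neighbouring cell and are tied to actin through catenins. E-cadherin (CDH1) is the main one of luminal epithelium, and P-cadherin (CDH3) that of the basal or myoepithelial layer in the breast. Claudins form the strands of the tight junction, and their composition sets which ions pass between cells. Desmocollins (DSC) and desmogleins (DSG) are the adhesive cadherins of desmosomes and are linked through plaque proteins to keratin filaments. Connexins assemble into channels that join the cytoplasm of adjacent cells.

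Total expected counts ranged from 7.89 M to 33.3 M per library. ESR2 stood at 1.06 to 2.26 CPM (counts scaled to library size by TMM) in the 6 uninduced libraries and at 98 to 134 CPM in the 6 induced ones, in the direction the labels give. The epithelial markers EPCAM, KRT7, KRT8, KRT18, KRT19 and CD24 were all present, at a summed 8820 to 10100 CPM in uninduced and 9640 to 11700 CPM in induced libraries. The basal breast cancer markers EGFR, KRT5, KRT6B, KRT14, KRT17 and FOXC1 summed to 4160 to 4510 CPM in uninduced and 3310 to 3740 CPM in induced libraries, without overlap. From uninduced vehicle to induced E2, mean EGFR went from 2510 to 2320 CPM and FOXC1 from 144 to 141. The keratins moved more: KRT5 from 857 to 596, KRT17 from 697 to 388, KRT14 from 134 to 60.2 and KRT6B from 22.6 to 11.1. The part of these markers in the changes of junction genes was not tested. Markers of other cell types were low: the 6 fibroblast markers summed to 22.4 to 28.7 CPM, with LUM and DCN at 0 in every library and the 5 immune markers to 4.9 to 9.45 CPM. The 6 endothelial markers summed to 20.7 to 52.3 CPM, most of it KDR (17.1 to 50.8 CPM), with VWF at 0.34 to 12.4 CPM, while CDH5 reached 0.375 CPM and CLDN5 0.341 CPM at most. Of the receptors listed as absent in triple-negative cells, ESR1 stood at 3.21 to 6.12 CPM over the 12 libraries. ERBB2 stood at 66.2 to 86.3 CPM, and PGR reached 0.155 CPM at most.

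Levels of different genes were compared per transcript length, as TPM, a gene's share of all transcripts after correction for length, from the authors' transcript fractions. In uninduced vehicle cells CLDN7, a claudin of most epithelia, was the most abundant member at 318 ± 13.7 TPM (SD, n = 3), followed by CLDN4 at 163 ± 9.01 TPM. CLDN10, a claudin whose splice forms make cation or anion pores, came next at 95.7 ± 12.9 TPM, and its libraries overlapped those of CLDN8 (80.7 ± 3.16 TPM). DSC2 (74.1 ± 2.81 TPM), CLDN3 (71.5 ± 4.27 TPM) and CDH1 (67.1 ± 2.17 TPM) overlapped from one to the next. DSG2 stood below them at 50.7 ± 1.02 TPM, and CLDN1 (46.3 ± 2.94 TPM) overlapped CDH3 (43.4 ± 0.21 TPM). The connexins were lower, led by GJB5 at 32.3 ± 1.02 TPM, with GJA5 at 12 ± 1.36 TPM. Other members above 10 TPM included CLDN23 at 32.8 ± 2.44, DSC3 at 19.7 ± 0.54, CLDN12 at 19 ± 1.44 and CDH24 at 16.3 ± 0.79. The other 13 tested members were at or below 3.12 TPM. Claudins together made up 837 ± 30.2 TPM, desmosomal cadherins 145 ± 3.21, cadherins 129 ± 2.2 and connexins 76.1 ± 2.15.

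**Figure D1:**
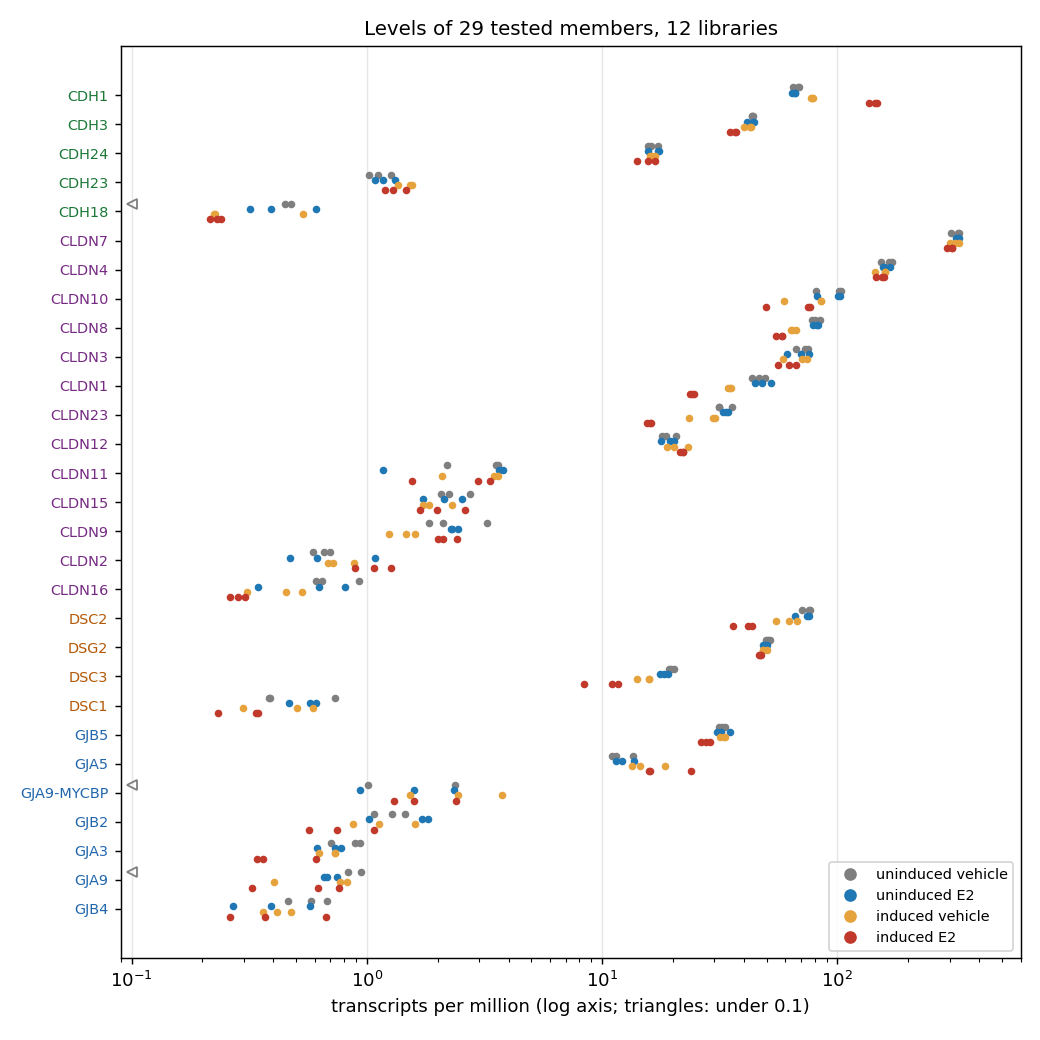
Level of 29 of the tested genes in the 12 libraries, in TPM on a log axis, with points coloured by group and names by family (green cadherins, purple claudins, brown desmosomal cadherins, blue connexins). CLDN7 is the most abundant, the induced E2 points of CDH1 lie to the right of its other points, and the induced E2 points of CLDN1, CLDN23, DSC2 and DSC3 lie to the left of theirs.

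The other 38 members were too low to test. Of them 12 had no count in any library, and 26 had some, of which 16 reached 3 counts in at least 1 library. The highest was 0.776 CPM, for CDH12. N-cadherin (CDH2), the cadherin of mesenchymal and neural cells, had 1 count in all 12 libraries together, and connexin GJA1, the widespread heart and myoepithelial connexin, also had 1. A floor of 3 counts corresponds to 0.0896 to 0.375 CPM, depending on the library. VE-cadherin (CDH5) had 34 counts in all. CLDN5, the claudin of endothelium, had 9, all in induced E2 libraries 1 to 3 (6, 1 and 2). CDH6 had 63.1 counts, CDH26 59 and GJB1 51, spread over several libraries. GJB1 averaged 0.298 and 0.233 CPM in uninduced vehicle and E2, and 0.0644 and 0.0995 CPM in induced vehicle and E2. These low genes were not tested in the main fit, and nothing firm can be said of their changes at this depth.

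Changes were tested across the 14541 genes that passed the filter. An adjusted p below 0.05 counts as called. E2 in induced cells called 1 of the 30 tested members higher and 7 lower, against 9.85% of all genes higher and 6.61% lower. Doxycycline without E2 called 1 higher and 3 lower, against 2.44% and 1.37%. With the replicate number as a block in the fit, these counts were 3 and 8 for E2, against 13.5% and 10.3% of all genes, and 2 and 5 for doxycycline, against 5.54% and 4.48%. Without uninduced vehicle library 1 the E2 comparison called 2 members higher (9.98% of all genes), and without induced vehicle library 2 it called 4 lower (4.16%). Doxycycline with E2 called 3 higher and 10 lower, against 15% and 13%. With the block it called 4 higher and 12 lower, against 19.1% and 18.2%. For that comparison, upper quartile scaling in place of TMM gave 1799 genes higher and 2679 lower, where TMM gave 2184 and 1894, and 2 members higher and 12 lower (12.4% and 18.4% of all genes). The median log2 change of the 30 members was −0.16 with E2 in induced cells, −0.04 with doxycycline alone and −0.12 with doxycycline in the presence of E2, beside 0, 0 and −0.01 for all genes. These comparisons share groups with each other. In the fit without the block, 13 members were called in at least 1 comparison and 17 in none. The matching share over all genes was not counted.

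E2 in uninduced cells called no member by edgeR's quasi-likelihood test, against 0% of all genes higher and 0% lower. No member had an unadjusted edgeR p under 0.05 there, but the share of all genes under that level was not counted. DESeq2 called 0 members and 1 gene in all. The changes of 16 members with a mean of at least 10 CPM stayed within 0.09 of 0 on the log2 scale in that comparison. For CDH1 it was −0.03 (95% interval −0.11 to 0.06), and for DSC2 −0.03 (−0.2 to 0.14).

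**Figure D2:**
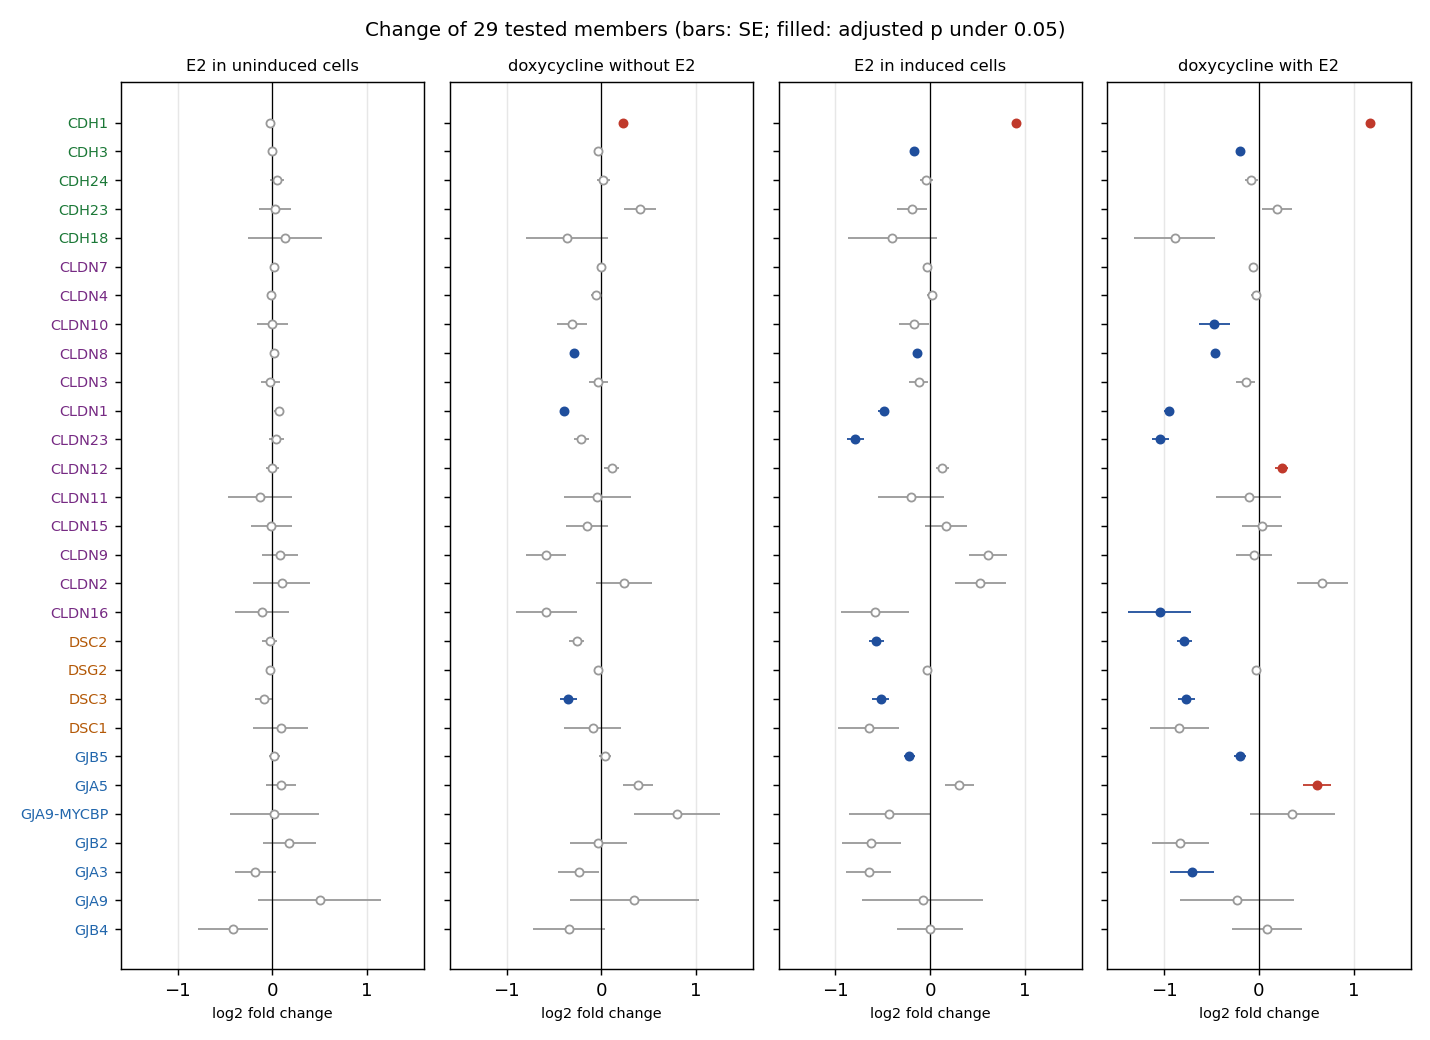
Fitted log2 fold change of 29 of the tested genes (points; bars are 1 SE) in the 4 comparisons, filled red where called higher, filled blue where called lower and open where not called. The E2 panel for uninduced cells holds no filled point, CDH1 is the red point in the other panels that lies farthest to the right, and most filled points are blue claudins and desmocollins.

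E-cadherin was the 1 member called higher with E2 in induced cells, and P-cadherin, encoded by the neighbouring gene, was called lower. In bulk RNA, a change in how many cells express a gene and a change in RNA per cell cannot be told apart. CDH1 stood at 143, 153 and 153 CPM in uninduced vehicle libraries 1 to 3, and at 143, 150 and 149 CPM with E2. It stood at 174, 178 and 175 CPM in induced vehicle libraries and at 316, 337 and 340 CPM in induced E2 libraries. Both induced groups lay wholly above the uninduced libraries, and the induced E2 group wholly above induced vehicle. E2 in induced cells raised CDH1 1.88-fold (log2 0.91, SE 0.04, adjusted p = 1.52e-09), and doxycycline with E2 raised it 2.25-fold (log2 1.17, SE 0.04, adjusted p = 3.19e-11). Doxycycline without E2 gave a smaller rise, of 1.17-fold (log2 0.23, SE 0.04, adjusted p = 0.00343). That small rise was no longer called without the libraries numbered 2 (adjusted p = 0.128) or 3 (0.135).

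CDH3 stood at 85.7, 85.7 and 86 CPM in uninduced vehicle, 86, 88.7 and 82.7 in uninduced E2, 80, 86.2 and 85.3 in induced vehicle, and 72, 76.3 and 75 in induced E2. The induced E2 libraries were the lowest of all 12. CDH3 fell 1.13-fold with E2 in induced cells (log2 −0.17, SE 0.04, adjusted p = 0.0096) and 1.15-fold with doxycycline in the presence of E2 (log2 −0.20, SE 0.04, adjusted p = 0.00169). The fall with E2 was not called without induced vehicle library 2 (adjusted p = 0.0692) or without the libraries numbered 2 (0.132) or 3 (0.175). The ratio of CDH1 to CDH3 in TPM was 1.55 ± 0.0572 in uninduced vehicle (SD, n = 3), 1.52 ± 0.0666 in uninduced E2, 1.86 ± 0.0562 in induced vehicle and 3.94 ± 0.0791 in induced E2. Its induced E2 values, 3.89 to 4.03, lay above every other library. The other tested cadherins were not called. CDH24, a classical-type cadherin, moved by −0.08 to 0.05 on the log2 scale, and CDH23, known for the tip links of hair cells, and CDH18 were at or below 2.8 CPM.

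**Figure D3:**
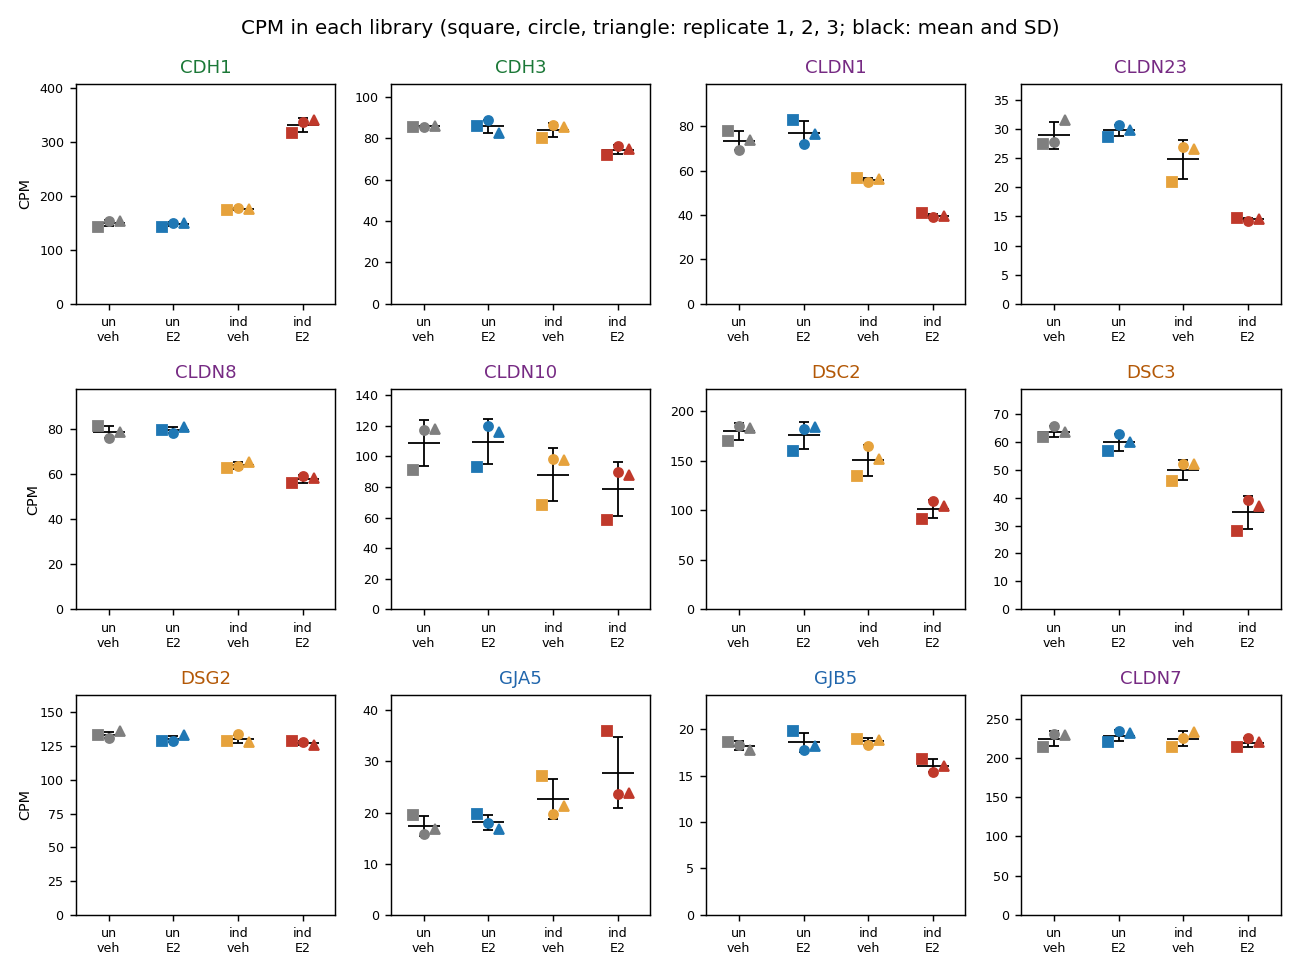
CPM of 12 of the genes in every library, from 0, by group (un, uninduced; ind, induced; veh, vehicle), with squares, circles and triangles for libraries 1, 2 and 3 and black bars for the mean and SD. CDH1 is highest in induced E2 cells, CLDN1, CLDN23, DSC2 and DSC3 are lowest there, DSG2 and CLDN7 differ little between groups, and library 1 is the lowest of every group for CLDN10.

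Among claudins, 3 of 13 fell with E2 in induced cells and none rose, against 6.61% of all genes lower and 9.85% higher. When doxycycline was compared in the presence of E2, 5 fell and 1 rose, against 13% and 15%. CLDN1, a barrier-forming claudin needed for the skin barrier, stood at 77.7, 69.1 and 74 CPM in uninduced vehicle and 82.7, 72.2 and 76.5 in uninduced E2. It stood at 56.6, 55.1 and 56.1 CPM in induced vehicle and at 40.7, 39 and 39.5 in induced E2. The uninduced groups overlapped, while induced vehicle lay below both and induced E2 below induced vehicle. CLDN1 fell 1.31-fold with doxycycline alone (log2 −0.39, SE 0.05, adjusted p = 0.000652), 1.41-fold with E2 in induced cells (log2 −0.49, SE 0.06, adjusted p = 1.84e-05) and 1.94-fold with doxycycline in the presence of E2 (log2 −0.95, SE 0.05, adjusted p = 7.61e-09). Without the libraries numbered 3, the call for doxycycline alone was lost (adjusted p = 0.0931).

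CLDN23 had the largest called fall with E2 among the members. It stood at 27.5, 27.7 and 31.5 CPM in uninduced vehicle, 28.7, 30.7 and 29.9 in uninduced E2, 20.9, 27 and 26.5 in induced vehicle, and 14.8, 14.2 and 14.5 in induced E2. The induced E2 libraries lay below all others and close together. E2 in induced cells lowered it 1.73-fold (log2 −0.79, SE 0.09, adjusted p = 1.67e-05), and doxycycline with E2 lowered it 2.05-fold (log2 −1.04, SE 0.09, adjusted p = 3.93e-07).

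CLDN8, an ion barrier claudin of distal kidney tubule and other epithelia, showed most of its change with doxycycline and less with E2. Its libraries read 81.2, 75.9 and 78.5 CPM in uninduced vehicle, 79.2, 77.9 and 80.9 in uninduced E2, 62.4, 63.6 and 65.4 in induced vehicle, and 55.8, 59.1 and 58.3 in induced E2. The induced groups did not overlap the uninduced ones or each other. CLDN8 fell 1.23-fold with doxycycline alone (log2 −0.29, SE 0.04, adjusted p = 0.000565) and 1.37-fold with doxycycline in the presence of E2 (log2 −0.46, SE 0.04, adjusted p = 5.94e-07). The fall with E2 in induced cells was 1.11-fold (log2 −0.14, SE 0.04, adjusted p = 0.0223). That call was lost when induced vehicle library 2 or 3 or induced E2 library 1 or 3 was left out (adjusted p = 0.0534 to 0.1), with the libraries numbered 2 (0.14) or 3 (0.291) left out, and in DESeq2 (0.0532). The call for doxycycline alone was lost without the libraries numbered 3 (0.0616).

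CLDN10 differed between library numbers as well as between groups. It stood at 91.1, 117 and 118 CPM in uninduced vehicle, 93.1, 120 and 116 in uninduced E2, 68, 98.2 and 97.8 in induced vehicle, and 58.6, 90 and 87.8 in induced E2. Library 1 was the lowest in every group, so that groups overlapped in 2 of the 3 comparisons that involve induced cells. Doxycycline with E2 lowered CLDN10 1.39-fold (log2 −0.47, SE 0.16, adjusted p = 0.0427). With the replicate number as a block the same change had an SE of 0.04 (adjusted p = 4.46e-08). The block also called the falls with doxycycline alone (log2 −0.30, adjusted p = 0.000163, against 0.409 without it) and with E2 in induced cells (log2 −0.16, adjusted p = 0.0144, against 0.595). Without the block, the call was lost when any of 7 libraries was left out, namely numbers 2 and 3 of uninduced vehicle, uninduced E2 and induced vehicle and number 1 of induced E2 (adjusted p = 0.0506 to 0.147). It was also lost without the libraries numbered 2 (0.163) or 3 (0.187) and in DESeq2 (0.0828).

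The remaining called claudins were called only in doxycycline with E2. CLDN12 rose 1.18-fold (log2 0.24, SE 0.07, adjusted p = 0.0219), from 32.5, 30.1 and 34.1 CPM in uninduced E2 to 37.4, 38.4 and 38.1 in induced E2. CLDN16, known for magnesium uptake in the kidney, fell 2.08-fold (log2 −1.05, SE 0.33, adjusted p = 0.0265), but at 0.408 to 1.23 CPM in those libraries. The groups compared did not overlap for either gene. The CLDN12 call was lost without uninduced E2 library 2 or induced E2 library 2 or 3 (adjusted p = 0.0608 to 0.111), without the libraries numbered 2 (0.235) or 3 (0.0891), and with upper quartile scaling (0.056). That for CLDN16 was lost without uninduced E2 library 2 or 3 or any induced E2 library (0.0558 to 0.129), without the libraries numbered 2 (0.269) or 3 (0.263), and in DESeq2 (0.0841). With the block, CLDN9 was called higher with E2 in induced cells (log2 0.61, adjusted p = 0.046, against 0.0591), at 1.17 to 2.32 CPM. CLDN2, the cation and water pore claudin, was called higher with doxycycline in the presence of E2 (log2 0.68, adjusted p = 0.0285, against 0.0779), at 0.636 to 1.76 CPM.

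The most abundant claudins were called in no comparison. CLDN7 stood at 214 to 231 CPM in uninduced vehicle, 220 to 234 in uninduced E2, 214 to 233 in induced vehicle and 214 to 225 in induced E2. CLDN4 averaged 134 ± 8.13, 133 ± 6.62, 128 ± 6.99 and 130 ± 4.54 CPM (SD, n = 3) in those groups. With E2 in induced cells the 95% interval of the log2 change was −0.12 to 0.06 for CLDN7 and −0.10 to 0.13 for CLDN4. For CLDN3, at 40.1 ± 2.34, 39.2 ± 4.66, 38.7 ± 4.73 and 35.9 ± 2.98 CPM in the same order, it was −0.33 to 0.08. The ratio of CLDN1 to CLDN7 in TPM went from 0.146 ± 0.0154 in uninduced vehicle and 0.149 ± 0.0141 in uninduced E2 to 0.11 ± 0.00578 in induced vehicle and 0.0798 ± 0.00371 in induced E2. Its induced E2 values did not overlap those of any other group.

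Both abundant desmocollins fell, while the abundant desmoglein, DSG2, was called in no comparison. DSC2, the desmocollin of most epithelia and of heart, stood at 170, 185 and 183 CPM in uninduced vehicle, 160, 182 and 184 in uninduced E2, 134, 165 and 152 in induced vehicle, and 90.7, 109 and 104 in induced E2. The induced E2 libraries lay below all others. E2 in induced cells lowered DSC2 1.48-fold (log2 −0.57, SE 0.08, adjusted p = 0.000155), and doxycycline with E2 lowered it 1.73-fold (log2 −0.79, SE 0.08, adjusted p = 3.21e-06). With doxycycline alone the groups did not overlap but the change was not called (log2 −0.26, SE 0.08, adjusted p = 0.108). With the replicate number as a block it was called (log2 −0.25, SE 0.04, adjusted p = 6.61e-05).

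DSC3, a desmocollin of the basal layers of stratified epithelium, stood at 61.7, 65.7 and 63.6 CPM in uninduced vehicle, 56.8, 62.9 and 59.9 in uninduced E2, 45.8, 51.9 and 51.9 in induced vehicle, and 28.1, 39.3 and 36.9 in induced E2. The uninduced groups overlapped, induced vehicle lay below both, and induced E2 lay below induced vehicle. DSC3 fell 1.43-fold with E2 in induced cells (log2 −0.52, SE 0.09, adjusted p = 0.00116) and 1.71-fold with doxycycline in the presence of E2 (log2 −0.77, SE 0.09, adjusted p = 1.41e-05). The first of these was just lost without the libraries numbered 3 (adjusted p = 0.0536). The 1.28-fold fall with doxycycline alone (log2 −0.35, SE 0.09, adjusted p = 0.046) was lost when any of 9 libraries was left out, namely all 3 of uninduced vehicle, all 3 of induced vehicle, numbers 2 and 3 of uninduced E2 and number 3 of induced E2 (0.0589 to 0.169). It was also lost without the libraries numbered 2 (0.273) or 3 (0.418), and was called with the block (0.00021).

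The proportion of the desmocollins to each other varied little: DSC3 over DSC2 in TPM was 0.265 ± 0.00543, 0.255 ± 0.0115, 0.249 ± 0.0112 and 0.255 ± 0.0205 (SD, n = 3) in uninduced vehicle and E2 and in induced vehicle and E2, with values between 0.232 and 0.271 in every library. DSG2, the desmoglein of simple epithelia, averaged 133 ± 2.75, 130 ± 2.14, 130 ± 3.3 and 128 ± 1.5 CPM in that order. Its change with E2 in induced cells was −0.03 on the log2 scale (95% interval −0.10 to 0.05), and it was called in no comparison. DSC2 over DSG2 in TPM went from 1.46 ± 0.0707 in uninduced vehicle to 0.861 ± 0.0868 in induced E2, where its highest library, 0.928, lay below the lowest of every other group. DSC1, a desmocollin of the upper epidermis, was at 0.473 to 1.43 CPM and was called lower only with the block, for doxycycline with E2 (log2 −0.84, adjusted p = 0.0215, against 0.0573).

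DSC3, DSC2, DSC1 and DSG2 lie in 1 run of 8 neighbouring members on chromosome 18, which begins with CDH2 and ends with DSG2. Promoters of DSC2, DSC3 and DSG2 are shown because these abundant neighbours moved differently, with that of CLDN1 as a fallen gene on another chromosome. The window of DSC1, a gene with few counts, holds none of the motifs searched and is not printed. The choice was made after the values were seen. Each window is the 250 bases before a transcript start in RefSeq (GRCh38.p14), 5′ to 3′ on the gene's own strand. The windows are CLDN1 at chr3:190322447-190322696 (minus strand), DSC2 at chr18:31102422-31102671 and, for its second start, chr18:31101261-31101510 (both minus), DSC3 at chr18:31042743-31042992 (minus) and DSG2 at chr18:31497927-31498176 (plus). Capitals mark the estrogen half-site GGTCA, the E-box CACCTG and the GC box GGGCGG, on either strand.
CLDN1: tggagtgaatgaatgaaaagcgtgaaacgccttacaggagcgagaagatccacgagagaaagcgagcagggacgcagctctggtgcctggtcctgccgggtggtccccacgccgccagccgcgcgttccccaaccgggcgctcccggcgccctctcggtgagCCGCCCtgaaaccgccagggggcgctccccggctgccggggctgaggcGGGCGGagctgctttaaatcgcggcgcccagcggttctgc
DSC2 first start: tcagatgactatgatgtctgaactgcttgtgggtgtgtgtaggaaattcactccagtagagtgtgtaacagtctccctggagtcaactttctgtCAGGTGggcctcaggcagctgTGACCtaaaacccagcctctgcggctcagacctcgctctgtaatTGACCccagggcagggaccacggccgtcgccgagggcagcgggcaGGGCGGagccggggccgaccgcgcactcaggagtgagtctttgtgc
DSC2 second start: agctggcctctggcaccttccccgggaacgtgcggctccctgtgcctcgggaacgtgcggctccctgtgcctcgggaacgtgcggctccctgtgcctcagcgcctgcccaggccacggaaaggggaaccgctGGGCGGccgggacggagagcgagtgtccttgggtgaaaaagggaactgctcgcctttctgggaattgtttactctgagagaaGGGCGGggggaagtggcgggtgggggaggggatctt
DSC3: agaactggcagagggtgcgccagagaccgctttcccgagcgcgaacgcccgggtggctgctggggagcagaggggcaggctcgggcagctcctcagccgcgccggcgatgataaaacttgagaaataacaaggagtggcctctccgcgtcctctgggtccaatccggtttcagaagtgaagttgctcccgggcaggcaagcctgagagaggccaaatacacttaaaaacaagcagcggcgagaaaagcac
DSG2: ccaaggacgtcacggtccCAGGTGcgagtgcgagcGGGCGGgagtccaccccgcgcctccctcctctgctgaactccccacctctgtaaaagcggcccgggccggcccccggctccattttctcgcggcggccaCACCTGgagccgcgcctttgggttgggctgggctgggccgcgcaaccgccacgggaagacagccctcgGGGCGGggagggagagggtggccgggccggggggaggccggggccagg

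The DSC2 window at its first start holds 2 estrogen half-sites, at 135 to 131 and 91 to 87 bases before the start, an E-box and a GC box. Its second start has 2 GC boxes, CLDN1 has 2 GC boxes, DSG2 has 2 E-boxes and 2 GC boxes, and the DSC3 window has none of these motifs. RefSeq windows were found for 43 of the 68 members and 19 of the 30 tested ones, in 30 windows for the latter. No window was found for CDH1, CDH3, CLDN23, CLDN8 or GJB5, all called with E2 in induced cells, so these genes were not searched. GGTCA was in 26.7% of those 30 windows and in 32.6% of the 35116 windows of all genes. CACCTG was in 16.7% against 17.5%, GGGCGG in 50% against 42.6%, and the AP-1 site TGANTCA in 16.7% (5 windows) against 6.57%, searched on both strands. Those 5 windows belong to CDH18, CLDN15, CLDN16, CLDN2 and CLDN4, of which only CLDN16 was called without the block. Over the 64 windows found for members, 8 held the AP-1 site. The full palindromic estrogen response element is 2 half-sites in inverted orientation with 3 bases between them. It was in 0.0399% of all windows and in none of the 64 windows found for members. A match in such a window is a run of letters and no evidence of binding.

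Of the connexins, 1 of 8 fell with E2 in induced cells, against 6.61% of all genes. With doxycycline in the presence of E2, 1 rose and 2 fell, against 15% of all genes higher and 13% lower. GJA5, a connexin of atrial muscle and arterial endothelium, stood at 19.5, 15.9 and 16.7 CPM in uninduced vehicle, 19.7, 17.9 and 16.8 in uninduced E2, 27.1, 19.8 and 21.2 in induced vehicle, and 35.9, 23.7 and 23.9 in induced E2. Library 1 was the highest in every group, and the 2 induced groups overlapped. Doxycycline with E2 raised GJA5 1.53-fold (log2 0.61, SE 0.15, adjusted p = 0.00637). That call was lost without the libraries numbered 3 (adjusted p = 0.0626). Doxycycline alone (log2 0.39, adjusted p = 0.244) and E2 in induced cells (log2 0.31, adjusted p = 0.208) were called only with the block (log2 0.36, adjusted p = 0.00524, and log2 0.29, adjusted p = 0.00518). Of the 6 endothelial markers 3 were tested, and with doxycycline in the presence of E2 VWF was higher (log2 4.00, adjusted p = 6.76e-08), KDR was lower (log2 −1.22, adjusted p = 3.18e-05) and PECAM1 stood at 0.27 (adjusted p = 0.574). The 6 markers summed to 35.5 to 50.4 CPM in uninduced E2 and 25.1 to 32.6 CPM in induced E2, and their part in the GJA5 result was not tested.

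GJB5, a connexin of skin and placenta, stood at 18.7, 18.3 and 17.8 CPM in uninduced vehicle, 19.8, 17.8 and 18.2 in uninduced E2, 19, 18.3 and 18.9 in induced vehicle, and 16.8, 15.4 and 16.1 in induced E2, the lowest 3 libraries of the 12. It fell 1.16-fold with E2 in induced cells (log2 −0.22, SE 0.06, adjusted p = 0.023) and 1.15-fold with doxycycline in the presence of E2 (log2 −0.20, SE 0.06, adjusted p = 0.0196). The first call was lost without induced vehicle library 2 or 3 or induced E2 library 2 or 3 (adjusted p = 0.0542 to 0.108), without the libraries numbered 2 (0.242) or 3 (0.283), and in DESeq2 (0.102). The other was lost without uninduced E2 library 1 or induced E2 library 2 or 3 (0.0533 to 0.0924), without the libraries numbered 2 (0.152) or 3 (0.17), and in DESeq2 (0.0911). GJA3, a lens connexin, was called lower with doxycycline in the presence of E2 (log2 −0.71, SE 0.23, adjusted p = 0.0333), but at 0.854 to 1.91 CPM, with groups that overlapped. That call was lost without uninduced E2 library 2 or 3 or induced E2 library 2 or 3 (0.0851 to 0.142), without the libraries numbered 2 (0.358) or 3 (0.348), and in DESeq2 (0.0871). Both GJB5 calls and the GJA3 call were also lost when only the groups compared were fitted. GJB2, the neighbour of GJA3, was called lower only with the block (log2 −0.82, adjusted p = 0.0302, against 0.0524). GJA9 and the read-through GJA9-MYCBP share exons, so the authors' counting could split their reads, and neither was called.

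Whether E2 acted differently with and without the receptor induced was tested by the interaction, in which the log2 change with E2 without doxycycline is subtracted from that with doxycycline. It called 1 of 30 members higher and 3 lower, against 5.66% of all genes higher and 2.81% lower. With the block 6 were lower (5.88% of all genes), and without induced vehicle library 1 there were 5 (3.58%). CDH1 had an interaction of 0.94 (SE 0.06, adjusted p = 1.96e-07), CLDN23 of −0.83 (SE 0.12, adjusted p = 0.000413), CLDN1 of −0.57 (SE 0.08, adjusted p = 0.000235) and DSC2 of −0.54 (SE 0.11, adjusted p = 0.00728). All 3 same-numbered sets of libraries gave the same sign for each of these genes. They did so for some uncalled members as well, so the sign does not set the called genes apart. The CLDN23 call was lost without the libraries numbered 2 (adjusted p = 0.0761), and that of DSC2 without the libraries numbered 2 (0.0979) or 3 (0.198). DSC3 had −0.42 (adjusted p = 0.0576), which the block called (0.000479). The block also called CDH3 (−0.18, adjusted p = 0.0283, against 0.0984) and CLDN8 (−0.17, adjusted p = 0.0433, against 0.1).

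**Figure D4:**
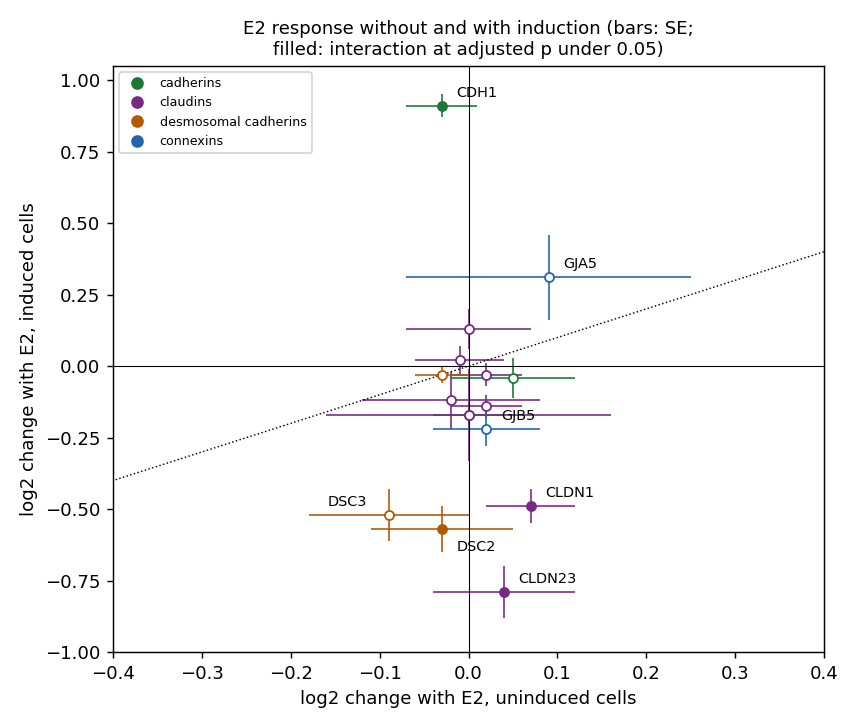
Log2 change with E2 in uninduced cells (horizontal) and in induced cells (vertical) for 16 genes with a mean of at least 10 CPM; bars are 1 SE, the dotted line marks equal change and the axes differ in scale. Points lie within 0.09 of 0 horizontally, while CDH1 is at 0.91 and CLDN23 at −0.79 vertically, and the 4 filled points passed the interaction test.

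CLDN7, CLDN4, DSG2, CLDN3 and CDH24, all above 10 CPM and called nowhere, moved by −0.14 to 0.05 on the log2 scale over the 4 comparisons, with SEs of 0.03 to 0.1. The 11 members below 10 CPM that were uncalled without the block moved by −0.89 to 0.8, with SEs of 0.16 to 0.68. Changes of the size seen in CLDN1 or DSC2 were therefore not detectable in most of them. Summed over each family, claudins went from 837 ± 30.2 TPM in uninduced vehicle to 840 ± 25.1 in uninduced E2, 771 ± 46.3 in induced vehicle and 711 ± 35.5 in induced E2 (SD, n = 3). Desmosomal cadherins went from 145 ± 3.21 to 140 ± 5.57, 126 ± 7.95 and 97.9 ± 5.43 TPM. Cadherins went from 129 ± 2.2 to 128 ± 1.76, 139 ± 2.62 and 197 ± 8.33 TPM. Without CDH1 the cadherin sum was 61.8 ± 0.755, 62.2 ± 1.3, 60.8 ± 1.98 and 53.8 ± 2.19 TPM, so the higher sum in induced E2 cells came from CDH1 alone. Connexins stayed at 76.1 ± 2.15, 76.8 ± 4.7, 81.4 ± 5.18 and 74.8 ± 5.88 TPM.

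Members often lie next to each other in the genome: in the RefSeq gene table, which lists 67 of the 68, 40 members form 15 runs of adjacent members. Neighbours differed in some runs and had similar values in others. CDH3 and CDH1, adjacent on chromosome 16, had log2 changes of −0.17 and 0.91 with E2 in induced cells. On chromosome 3, CLDN16 and CLDN1 had −0.58 and −0.49, and on chromosome 7 CLDN3 and CLDN4 had −0.12 and 0.02. GJA3 and GJB2, on chromosome 13, had −0.65 and −0.62. In the chromosome 18 run DSC3, DSC2, DSC1 and DSG2 had −0.52, −0.57, −0.65 and −0.03. None of these values was called for CLDN16, CLDN3, CLDN4, GJA3, GJB2, DSC1 and DSG2.

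Other genes of the junctions were counted in lists. With E2 in induced cells 9.85% of all genes were higher and 6.61% lower (13.5% and 10.3% with the block). Of 9 tested adherens junction partners, 2 were higher and 3 lower with E2 in induced cells. Afadin (MLLT4) rose by 0.33 on the log2 scale (adjusted p = 0.000228) and nectin 2 (PVRL2) by 0.33 (adjusted p = 0.00247), while nectin 4 (PVRL4) fell by 0.51 (adjusted p = 8.18e-05). Of 7 tested desmosome genes other than the cadherins, 1 was higher (PERP, 0.20, adjusted p = 0.00497) and 1 lower (EVPL, which encodes envoplakin, −0.28, adjusted p = 0.000306). Of 21 tight junction scaffold and other membrane genes, 1 was higher and 3 lower (2 and 6 with the block). The scaffold TJP3 rose with E2 in induced cells (0.40, adjusted p = 6.99e-05) and with doxycycline alone (0.30, adjusted p = 0.00459), while the adhesion receptor CXADR (−0.33, adjusted p = 0.000175) and the scaffold MPDZ (−0.31, adjusted p = 0.000568) fell with E2. None of 6 other connexins and pannexins was called by edgeR in any comparison, and 0 had an unadjusted p under 0.05. The share of all genes under that unadjusted level was not counted.

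Of 16 tested genes of the wider cadherin superfamily, 4 were higher and 4 lower with E2 in induced cells (4 and 6 with the block). The shares over all genes were 9.85% and 6.61% (13.5% and 10.3% with the block). CELSR2 and CELSR1, cadherins of planar cell polarity, rose by 0.91 (adjusted p = 1.96e-07) and 0.49 (adjusted p = 2.02e-05), and the protocadherin PCDH19 by 1.33 (adjusted p = 2.93e-08). The 4 lower, named after their values were seen, were PCDH20 (−1.10, adjusted p = 0.0167), FAT2 (−0.44, adjusted p = 0.028), FAT1 (−0.37, adjusted p = 0.00169) and PCDH1 (−0.24, adjusted p = 0.000491). With doxycycline alone CELSR1 rose by 0.64 (adjusted p = 1.25e-05) and CELSR2 by 0.44 (adjusted p = 0.00126), while PCDH19 stood at −0.22 (adjusted p = 0.196) and was called lower with the block (0.0191). Of 15 tested transcription factors known to act on junction genes, 5 were higher and 3 lower with E2 in induced cells, against 9.85% and 6.61% of all genes. None was called by edgeR with doxycycline alone, against 2.44% of all genes higher and 1.37% lower. There 4 had an unadjusted p under 0.05, a level at which the share of all genes was not counted. The block called 1 higher and 2 lower (5.54% and 4.48% of all genes). Of the 3 grainyhead factors, GRHL1 rose by 0.38 (adjusted p = 2.09e-05), while GRHL2 (−0.39, adjusted p = 2.64e-06) and GRHL3 (−0.39, adjusted p = 0.0258; named after its value was seen) fell. KLF5 also fell (−0.46, adjusted p = 0.000414). Of the 74 tested genes of these lists, 0 were called by edgeR with E2 in uninduced cells, and 0 had an unadjusted p under 0.05. The share of all genes under 0.05 unadjusted was not counted.

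Library number moved with some members. The libraries numbered 1 come from an earlier file date than those numbered 2 and 3, and 9 of the 30 members (17.7% of all genes) were called between the dates in the fit with the block. The largest were CLDN11, 1.08 higher on the log2 scale at the later date (adjusted p = 1.73e-05), CLDN10, 0.45 higher (adjusted p = 5.73e-08), and GJA5, at −0.39 (adjusted p = 0.000104). DSC2 (0.20), CLDN3 (0.20), DSC3 (0.19), CLDN4 (0.11), CLDN7 (0.08) and CDH1 (0.07) differed by less. Within the later date alone, the changes with E2 in induced cells were 0.94 for CDH1, −0.50 for CLDN1, −0.90 for CLDN23, −0.57 for DSC2 and −0.44 for DSC3, and each was called. The earlier date has 1 library per group and so gives no spread of its own.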

How the data were processed

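Total RNA of 12 samples (4 groups of 3) was extracted with the RNeasy Plus kit and prepared with TruSeq V2, per the labels' protocols. RSEM 1.1.16, DESeq 1.7.10 and hg19 are named in the submitters' processing notes; for the aligner, the sources used here name none. The authors deposited RSEM expected counts for 23228 genes and, for each gene, its fraction of the transcripts. The deposited fractions, scaled to TPM, were used to compare genes with each other.

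The test was the quasi-likelihood test of edgeR 4.0.16 (R 4.3.3) on rounded expected counts. The filter filterByExpr (minimum count 10, minimum total 15) left 14541 genes. Libraries were scaled by TMM, and all 12 libraries entered 1 model with 4 group means (8 residual degrees of freedom). P-values were adjusted by Benjamini-Hochberg over all genes of a contrast, with calls at 0.05. SEs and 95% intervals come from that fit; the fitted biological coefficient of variation was 5.34%. The scripts were tested on simulated data. Alternatives were DESeq2 1.42.0, RLE and upper quartile scaling, no filter, a minimum count of 50, an adjusted p under 0.01, only the groups compared, each library or replicate number left out, and the replicate number as a block (6 residual degrees of freedom).

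Same-numbered libraries tended to deviate alike from their group means. Their deviations correlated at 0.104 to 0.464 (18 pairs, median 0.246). Those of differently numbered libraries correlated at −0.427 to 0.278 (36 pairs, median −0.22), so the ranges overlapped. Number, sequencing lane and the date in the file names go together. The labels speak of triplicates without naming separate cultures, so p-values measure the spread between these samples, which may be technical.

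Every member could be named; members called in at least 1 contrast are given by library or group, uncalled ones by range, with the 5 most abundant of them in full, and up to 3 called genes of each other list. Some items are not reported here. The members, lists and tests were chosen with earlier results of these data known. Member genes are close relatives, so reads of near-identical stretches could be split between them.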

Additional observations from a re-analysis of the deposited data

Results flagged for a closer look

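The response to E2 differed between induced and uninduced cells for 4 genes, by the interaction test of edgeR. For CDH1 the log2 change with E2 was higher in induced than in uninduced cells by 0.94 (SE 0.06, adjusted p = 1.96e-07). It was lower in induced cells for CLDN23 (−0.83, SE 0.12, adjusted p = 0.000413), CLDN1 (−0.57, SE 0.08, adjusted p = 0.000235) and DSC2 (−0.54, SE 0.11, adjusted p = 0.00728). Groups of 3 libraries are too small for an outlier test.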

How the results depend on the processing

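Over 661 recomputations of the 29 calls for single genes, none changed direction, 576 stayed called and 85 were lost. For 13 of the 29 the call held under every alternative that gave a value, among them CDH1, CLDN1, CLDN23 and DSC2 with E2 in induced cells. The replicate block gave 3 members higher with E2 in induced cells (13.5% of all genes). It gave 2 higher and 5 lower with doxycycline alone (5.54% and 4.48%), and 6 lower in the interaction (5.88%). For the members, apart from the blocked values given in the report, the block changed no other call. A minimum count of 50 gave 2 members higher with E2 in induced cells, with 22 members tested, beside 1434 of all 12515 genes. Upper quartile scaling gave 6 members lower in the interaction, beside 518 of all 14541 genes. For doxycycline with E2, an adjusted p under 0.01 and DESeq2 each gave 6 members lower, beside 1169 and 1571 of all 14541 genes. Leaving out a library or a replicate number gave 1 to 3 members higher and 3 to 9 lower with E2 in induced cells. Over all genes it gave 688 to 1908 higher and 302 to 1483 lower, of 14259 to 14739 tested. Members were 0 to 2 higher and 0 to 5 lower with doxycycline alone (all genes 88 to 643 and 18 to 439). They were 1 to 4 higher and 6 to 12 lower with doxycycline in the presence of E2 (1236 to 2668 and 818 to 2396). In the interaction 1 was higher and 1 to 5 lower (242 to 1276 and 64 to 829). Of single libraries, uninduced vehicle 1, induced vehicle 2 and induced vehicle 1 moved a count by over 1.5 times when left out. Without uninduced vehicle 1, 2 members were higher with E2 in induced cells (9.98% of all genes). Without induced vehicle 2, 4 were lower there (4.16%), and without induced vehicle 1, 5 were lower in the interaction (3.58%). CDH1 ranked 7 among the members per transcript length and 3 by CPM, which does not divide by length. The cause of the other shifts was not tested. Members under about 4 CPM had SEs of 0.16 or more, so the depth limits what can be seen in them.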
